A study of Mus musculus with 6 samples.

Results

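Mitochondrial ribosomal proteins are the protein part of the ribosomes inside mitochondria. Their genes lie in the nuclear genome, and the proteins are made in the cytosol and imported. The ribosomes they form translate the few messages of mitochondrial DNA, all of them for subunits of the respiratory chain and the ATP synthase, and T cells are known to depend on mitochondrial translation when they expand. The genes were taken from the array by name, as every row listed as Mrpl (large subunit) or Mrps (small subunit) followed by a digit. This gave 125 probes for 73 genes of 28869 on the array, and each gene was represented by its brightest probe. By structural naming 47 of the 73 belong to the large subunit, including Mrps18a and Mrps30, and 26 to the small subunit.

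The samples were CD4+ T cells of 6-week-old mice of the strain labelled RAG1- BW TRP-1 TCR, which lack the RAG1 recombinase and whose T cells all bear 1 transgenic receptor, against the melanocyte antigen TRP-1. The 6 libraries are naive cells (day 0) and interleukin 17-producing helper cells (Th17) collected 2, 4, 7, 12 and 18 days after stimulation by TRP-1 peptide. The cells thus stand for a single antigen specificity, and the labels name no cell sort and do not say whether animals were pooled. Each day had 1 Illumina bead array, so no difference below has a replicate, a standard error or a p-value. Signals were background-corrected, quantile-normalized and put on the log2 scale, and a probe counted as detected on an array at a detection p below 0.01. A gene is called "higher" or "lower" here where the ratio of its signals was at least 2-fold and the brighter of both libraries detected it; smaller differences are given as values.

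Between 13687 and 14258 probes were detected per array, and 11936 genes were detected in at least 1 library. All 13 T cell markers measured were detected on every day, and their summed linear signal was 16630, 21750, 37580, 51330, 41630 and 43480 on days 0, 2, 4, 7, 12 and 18. Of 12 erythroid markers 11, 6, 4 and 1 were detected on days 0, 2, 7 and 18, with summed signals of 71630, 23170, 679 and 254. Neutrophil markers summed to 8855, 31930, 1932 and 179 on days 0, 2, 7 and 18, with 7, 8, 7 and 0 of 9 detected. Macrophage markers summed to 5827, 5889, 490 and 287 on the same days, with 10, 10, 4 and 2 of 12 detected. The near-equal macrophage sums of days 0 and 2 hide opposite moves. Of 11 detected markers 6 were lower and 3 higher at day 2 (8.96% and 7.48% of all genes), at a median of -1.04 log2 units. The marker sums moved beside every comparison below, and their part in the results was not tested. In such bulk samples fewer cells of a type and less RNA per cell cannot be told apart.

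Of the 73 genes, 66 were detected in all 6 libraries and Mrpl51 in 5. The remaining 6 (Mrpl19, Mrpl21, Mrpl32, Mrpl39, Mrpl45 and Mrps14) were detected in none by their brightest probe, with log2 signals of 4.14 to 4.83, and they carry no information on level. The median log2 signal of the 67 detected genes was 9.82, 9.79, 9.69, 9.35, 9.52 and 9.61 on days 0, 2, 4, 7, 12 and 18. The genes were therefore brightest in the naive and day 2 libraries and dimmest at day 7. Their ranges over the 6 days were narrow: the median range of the 66 genes was 0.68 log2 units, against 0.86 over the 8213 genes detected in all 6 libraries, and 12 of 66 (18.2%) spanned 2-fold or more, against 40.9% of all.

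The low point at day 7 was shared by most of the genes. Of the 66, 39 (59.1%) had their lowest signal at day 7, against 18.1% of all genes detected in all 6 libraries, and 27 (40.9%) had their highest at day 2, against 18.4% of all. A further 22 (33.3%) were highest at day 0, against 23% of all. Day 7 lay below day 4 in 59 of 66 (89.4%), against 50.2% of all genes, and day 12 above day 7 in 49 of 66 (74.2%), against 54.1%. In 48 genes (72.7%, against 30.9% of all) day 7 lay below both its neighbours. Cytosolic ribosomal protein and nuclear respiratory chain genes were also often lowest at day 7, in 24 of 58 (41.4%) and 20 of 64 (31.2%). They were lowest at day 2 nearly as often, in 23 of 58 (39.7%) and 17 of 64 (26.6%), against 6.06% of the 66 genes. Day 7 rests on 1 library, so a feature of that array and one of the cells cannot be told apart.

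**Figure D1:**
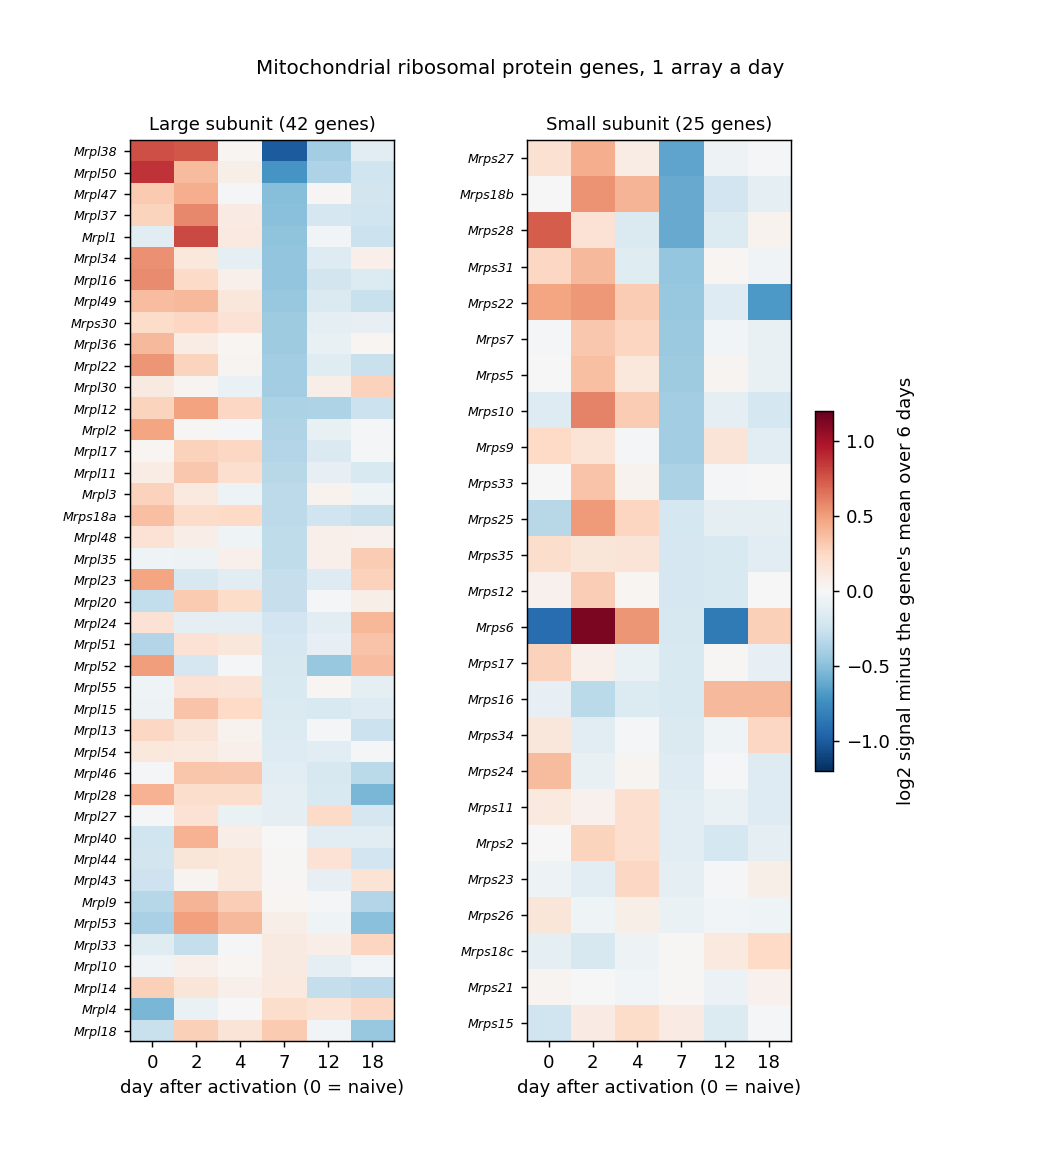
Log2 signal of each detected gene on each day minus that gene's own mean over the 6 days (colour; red above, blue below), for 42 large subunit and 25 small subunit genes sorted by day 7. The day 7 column is blue for most genes of both subunits, and Mrps6 stands apart with its maximum at day 2.

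Against naive cells, the day 2 library showed almost no net shift of these genes. All comparisons with day 0 share its single library. The median difference was 0.03 log2 units over 67 genes (all detected genes -0.01), with 35 positive and 32 negative; this small median turned to -0.29 with arrays scaled on reference genes and -0.71 with scaling on T cell markers. A single gene, Mrps6, was higher, in a comparison in which 7.48% of all detected genes were called higher, and none was lower (8.96% of all). At a 1.5-fold rule 8 genes were higher and 2 lower (15.2% and 17.1% of all). Mrpl1, Mrpl53 and Mrps25 followed Mrps6 with differences of 0.93, 0.88 and 0.84, while Mrpl52 and Mrpl23 had the most negative, at -0.71 and -0.67. Other Mrps25 probes detected in every library gave 0.01 and 0.32. Day 4 was similar, with a median of -0.05 (all genes 0.00; 0.09 with median scaling), Mrps6 as the single higher gene (8.1% of all) and none lower (9.44% of all); at 1.5-fold 4 were higher and 5 lower (15.7% and 17.5% of all).

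Mrps6 encodes a small subunit protein with a bacterial counterpart that binds the ribosomal RNA of the platform. Its log2 signal was 8.48, 10.53, 9.93, 9.21, 8.55 and 9.68 on days 0, 2, 4, 7, 12 and 18. The gene was thus 4.13-fold higher at day 2, 2.73-fold higher at day 4 and 2.29-fold higher at day 18 than at day 0, while day 12 was back near the naive level. It had the widest range of the 67 detected genes, 2.05 log2 units, and it rests on 1 probe. Day 2 passed the rule under all alternatives run, of which the detection filters and the mean of probes could not move it. Scaled on T cell markers, day 4 differed by -0.08 and day 18 by 0.48. The gene overlaps Slc5a3, a myo-inositol transporter gene whose start lies next to its own in the RefSeq annotation; the Slc5a3 probe was not detected in any library.

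At day 7 the genes had their most negative median against naive cells under quantile normalization. It was -0.38 log2 units (all genes -0.01; -0.61 with reference gene scaling and -1.48 with T cell marker scaling, where day 4 was at -1.50), with 52 of 67 genes negative, the middle 50% between -0.66 and -0.07, and the extremes at -1.77 and 0.76. There were 5 genes lower (9.34% of all detected genes) and none was higher (8.88% of all). At the 1.5-fold rule 22 of 67 were lower and 3 higher, where 18.2% and 16.8% of all genes were called. The 5 lower genes were Mrpl38, Mrpl50, Mrps28, Mrpl16 and Mrpl34, and Mrpl22 came next below the threshold at -0.95. The library at day 7 also had a T cell marker median of 1.53 log2 units above day 0, beside the marker sums given above.

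**Figure D2:**
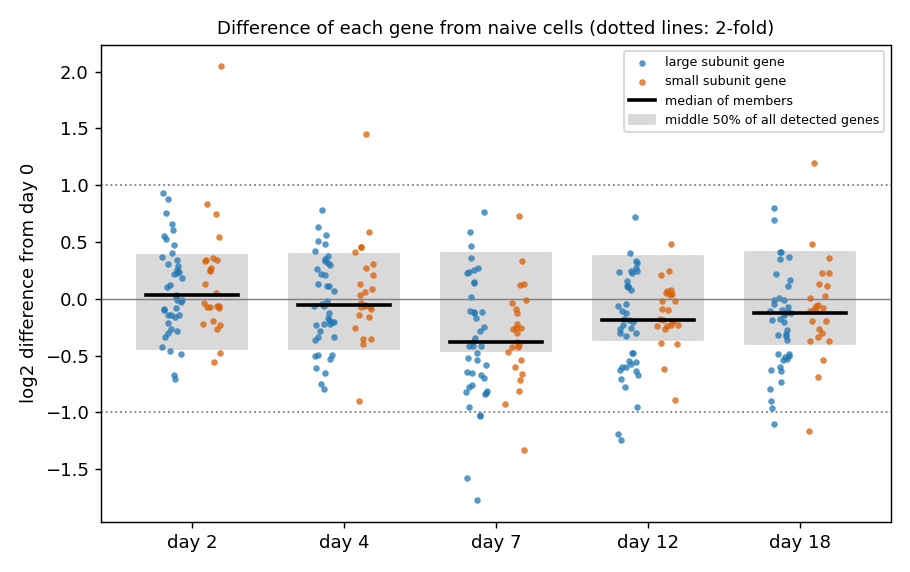
Log2 difference of each detected gene from day 0 on each activated day (points, coloured by subunit), with the median of the 67 genes (black line) and the middle 50% of all 11936 detected genes (grey band). The median lies at -0.38 on day 7, and few genes pass the dotted 2-fold lines on any day.

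Mrpl38, a large subunit protein of the central protuberance with no bacterial counterpart, had log2 signals of 10.52, 10.49, 9.77, 8.75, 9.33 and 9.62 on days 0, 2, 4, 7, 12 and 18. It was level from day 0 to day 2 and 3.41-fold lower at day 7 than at day 0. A second, dimmer Mrpl38 probe went from 5.86 at day 0 to 4.95 at day 7, a smaller difference of -0.91. Its day 7 value lies at the level of the lowest detected signals (4.88 to 4.97), which left little room for a larger fall. Mrpl50, another mitochondria-specific large subunit protein, stood at 10.28, 9.79, 9.48, 8.70, 9.03 and 9.17. The naive library was the highest, and the gene was lower at days 7, 12 and 18 by 2.99-fold, 2.37-fold and 2.15-fold. Mrpl38 was also lower at day 12, by 2.28-fold (-0.96 log2 units, short of the rule, on the mean of its probes). These were the only genes lower at day 12, at a median of -0.19 (all genes 0.02), where 7.73% of all genes were lower, 7.18% higher and none of the 67 higher. At 1.5-fold 1 gene was higher and 12 were lower at day 12, with 14.5% of all genes called each way.

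Mrps28, a small subunit protein, had log2 signals of 9.92, 9.37, 9.03, 8.60, 9.03 and 9.24 on days 0, 2, 4, 7, 12 and 18. It was below the naive level on every activated day and 2.51-fold lower at day 7. Mrpl16, whose bacterial counterpart lies near the site where transfer RNA is accommodated, stood at 8.92, 8.59, 8.42, 7.89, 8.14 and 8.19 on days 0, 2, 4, 7, 12 and 18. Mrpl34, a short basic large subunit protein, stood at 10.23, 9.81, 9.58, 9.20, 9.52 and 9.74 on the same days. Both were likewise highest in naive cells and dimmest at day 7, and passed the rule there narrowly, by 2.05-fold and 2.04-fold. Without background correction, or with an offset of 50, neither passed it, and Mrpl34 also missed it with median scaling, at -0.90. Mrpl50, Mrps28, Mrpl16 and Mrpl34 rest on 1 probe each.

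The promoters of 6 of the 8 called genes, those with a window in the RefSeq table used here, are shown. These 6 did not move as a set. Mrps6 was higher at days 2, 4 and 18, and Mrpl16, Mrpl34 and Mrpl50 were lower at day 7. Mrps22 was lower at day 18, and Mrpl1 was called only at day 18 against day 2. Each line gives the bases before the annotated RefSeq start (GRCm38.p6), read 5′ to 3′ on the gene's strand, with motif matches in capitals. Mrpl16 lies at chr19:11770165-11770414 on the plus strand and holds the cyclic AMP response element TGACGTCA; Mrpl34 (chr8:71464676-71464925, plus) and Mrps22 (chr9:98601680-98601929, minus) each hold the ETS motif CCGGAAG; Mrps6 (chr16:92058086-92058335, plus), Mrpl1 (chr5:96209865-96210114, plus) and Mrpl50 (chr4:49521084-49521175, minus, up to the start of its neighbour Zfp189) hold none of the motifs searched.
Mrpl16: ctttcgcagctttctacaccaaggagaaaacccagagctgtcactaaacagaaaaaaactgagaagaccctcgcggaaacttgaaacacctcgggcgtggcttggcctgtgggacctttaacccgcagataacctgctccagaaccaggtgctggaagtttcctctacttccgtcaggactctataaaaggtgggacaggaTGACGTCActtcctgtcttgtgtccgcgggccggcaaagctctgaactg
Mrpl34: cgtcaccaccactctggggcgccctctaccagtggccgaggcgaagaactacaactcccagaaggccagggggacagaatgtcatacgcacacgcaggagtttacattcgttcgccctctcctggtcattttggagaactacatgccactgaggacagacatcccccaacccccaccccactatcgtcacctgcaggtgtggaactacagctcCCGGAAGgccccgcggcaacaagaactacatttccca
Mrps22: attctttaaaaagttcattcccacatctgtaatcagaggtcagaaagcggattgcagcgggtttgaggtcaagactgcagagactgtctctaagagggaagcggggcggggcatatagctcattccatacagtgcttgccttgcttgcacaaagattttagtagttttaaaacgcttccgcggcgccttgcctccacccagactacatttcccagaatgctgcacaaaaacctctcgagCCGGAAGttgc
Mrps6: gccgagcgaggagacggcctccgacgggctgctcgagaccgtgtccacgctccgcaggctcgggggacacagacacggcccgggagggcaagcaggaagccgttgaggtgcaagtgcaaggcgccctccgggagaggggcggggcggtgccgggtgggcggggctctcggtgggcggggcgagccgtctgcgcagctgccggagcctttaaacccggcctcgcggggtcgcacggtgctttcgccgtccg
Mrpl1: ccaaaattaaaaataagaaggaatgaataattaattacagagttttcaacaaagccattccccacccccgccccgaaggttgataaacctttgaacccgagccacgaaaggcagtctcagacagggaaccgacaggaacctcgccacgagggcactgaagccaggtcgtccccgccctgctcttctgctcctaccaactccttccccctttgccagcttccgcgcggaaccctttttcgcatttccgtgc
Mrpl50: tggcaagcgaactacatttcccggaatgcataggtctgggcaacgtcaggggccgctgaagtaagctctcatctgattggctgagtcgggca

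Across the group, 64 of the 73 genes had a promoter window in the RefSeq table, from 250 bases before to 50 after each start, and some letters were more frequent in them than in all promoters. The ETS motif CCGGAAG, on either strand, lay in 24 of 64 (37.5%), against 12.9% of 17492 protein-coding genes and 24.3% of the 5772 of these that were detected in all 6 libraries. The YY1 motif AAGATGGC lay in 11 (17.2%), against 3.57% and 6.46%. The NRF1 palindrome lay in 3 (4.69%, against 1.47% and 2.63%), the E-box CACGTG in 5 (7.81%, against 8.91% and 12.9%) and TGACGTCA in 2 (3.13%, against 2.54% and 3.95%); the last 3 read the same on both strands. No matches of different motifs overlapped in these genes. The median difference of day 7 from day 0 was -0.32 in 22 detected genes with the ETS motif and -0.42 in 36 without it, and -0.61 in 10 genes with the YY1 motif and -0.36 in 48 without it. A match describes the letters only.

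Many of these genes start back to back with another gene. Of the 64 genes, 22 (34.4%) had a protein-coding neighbour on the opposite strand starting within 1000 bases upstream, against 8.48% of all 17492 and 15.7% of those detected in all 6 libraries. Mrpl46 and Mrps11, one of each subunit, are themselves such a pair, and Mrps12, whose protein sits at the decoding centre, faces Sars2, the mitochondrial seryl-tRNA synthetase. The stretches between the starts of these pairs are short enough to print, on the strand of the first-named gene (chr7:78783090-78783130 and chr7:28741822-28741967, both minus). They held none of the motifs, so they have no capitals. Outside these stretches, in the wider windows counted above, Mrps12 had an ETS and a YY1 match and Mrps11 a YY1 match.
Mrpl46 and Mrps11: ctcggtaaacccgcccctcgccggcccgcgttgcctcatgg
Mrps12 and Sars2: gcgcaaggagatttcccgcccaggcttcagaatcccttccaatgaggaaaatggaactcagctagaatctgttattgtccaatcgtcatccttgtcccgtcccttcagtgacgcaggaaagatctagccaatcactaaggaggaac

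The values of paired genes were set side by side without a test. At day 2 against day 0, Mrpl46 differed by 0.34 and Mrps11 by -0.06, while Mrps12 differed by 0.24 and Sars2 by 0.51. A second Mrps12 probe gave -0.02. In this comparison the SD of the disagreement between probes of the same gene was 0.28 over 21 ribosomal protein genes. Over the 15 pairs whose partner lies outside the group, with both genes detected, the median difference of day 7 from day 0 was -0.43 for the ribosomal protein gene and -0.09 for its neighbour, and both genes were negative in 6 pairs. Mrpl43 and Twnk, the mitochondrial DNA helicase gene, lie 115 bases apart and differed most, at 0.27 and -1.33. Mrpl18 and the chaperonin gene Tcp1 were close at day 2, at 0.55 and 0.57, and apart at day 7, at 0.59 and 0.14.

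At day 18 the median difference from naive cells was -0.13 (all genes 0.03), with 48 of 67 negative. Relative to the median of all genes it lay between -0.30 and -0.13 under the alternatives run, against -0.38 to -0.26 at day 7, and under median, reference gene and T cell marker scaling day 18 was the more negative of both, at -0.30 against -0.26. These scalings shift whole arrays, so their relative values are the same by construction. Mrps6 was the single higher gene (7.93% of all genes were called higher), and Mrpl50 and Mrps22 were lower (8.68% of all); at 1.5-fold 3 were higher and 10 lower (16.4% and 15.9% of all). Mrps22, a mitochondria-specific small subunit protein whose human gene is linked to mitochondrial disease, had log2 signals of 9.53, 9.58, 9.37, 8.61, 8.91 and 8.37 on days 0, 2, 4, 7, 12 and 18. Unlike most of the group it was lowest at day 18, 2.24-fold below day 0.

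Day 18 was also compared with day 2, which leaves the naive library out. The erythroid marker sum was 23170 at day 2 and 254 at day 18, and the neutrophil sum 31930 and 179. Their part in this comparison was not tested. The median of the 67 genes was -0.33 (all genes 0.00), with 52 of 67 negative, and it stayed between -0.17 and -0.38 under all alternatives run. Mrps22 (2.31-fold) and Mrpl1 (2.07-fold) were lower, against 7.95% of all genes, and none was higher, against 8.9%. At the 1.5-fold rule 17 genes were lower and 1 higher, where 16.1% and 17.5% of all genes were called. Mrpl1, the protein of the stalk beside the exit site of transfer RNA, had log2 signals of 8.80, 9.73, 9.06, 8.46, 8.91 and 8.68 on days 0, 2, 4, 7, 12 and 18, so that day 2 alone stood out as high. Its call at day 18 was lost with T cell marker scaling, without background correction and with an offset of 50, at -0.93, -0.94 and -0.99. Mrps16, whose human gene is linked to mitochondrial disease, ran the other way, at 10.02, 9.79, 9.95, 9.93, 10.50 and 10.51, and had the largest positive difference of day 18 from day 2, 0.72.

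**Figure D3:**
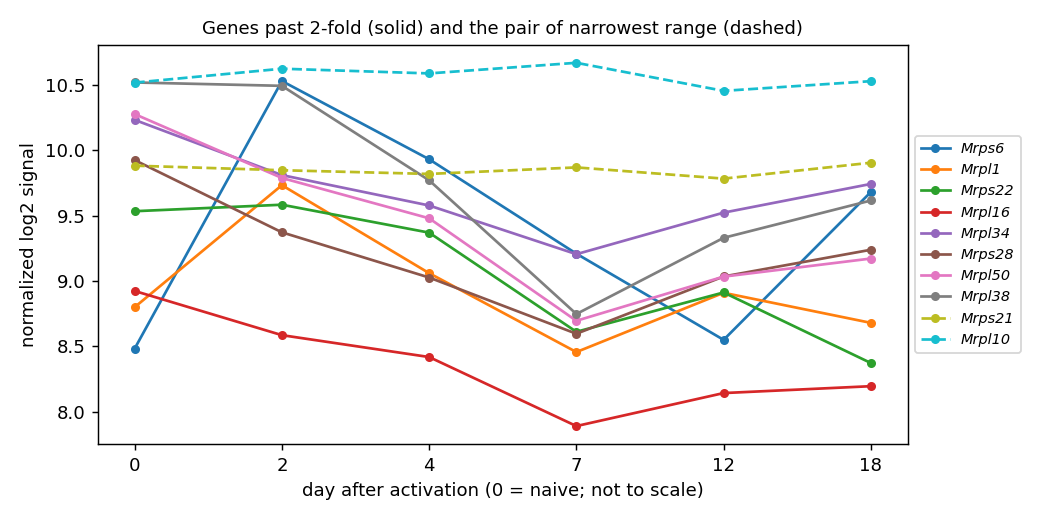
Normalized log2 signal by day for the 8 genes called higher or lower against day 0 or at day 18 against day 2 (solid) and for Mrps21 and Mrpl10, the pair of narrowest range (dashed); heights of different probes cannot be compared. Mrps6 peaks at day 2 at 10.53, Mrpl38 and Mrpl50 reach 8.75 and 8.70 at day 7, and the dashed lines stay within 0.12 and 0.21 log2 units.

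The step from day 4 to day 7 was the sharpest between successive days. The 67 genes had medians of -0.10 from day 2 to day 4, -0.34 from day 4 to day 7, 0.17 from day 7 to day 12 and 0.02 from day 12 to day 18. From day 4 to day 7, 60 of 67 were negative and 2 were lower, Mrpl38 (2.03-fold) and Mrps18b (2.02-fold), against 2.44% of all genes lower, and none was higher (2.54% of all). At 1.5-fold 14 were lower and none higher (7.98% and 8.7% of all). Mrpl38 and Mrps18b each kept this call in 5 of 10 alternatives. Of these, median scaling was the only one that rescaled the signals. The others changed only the detection filter, which cannot move these values, or took the deposited normalized set, which nearly repeats them (-1.02 and -1.01). Both genes missed the call on the mean of their probes (-0.94 each) and with reference gene or T cell marker scaling. They also missed it without background correction and with an offset of 50. Mrps18b, a small subunit protein that is 1 of 3 mammalian relatives of a single bacterial protein, stood at 10.16, 10.70, 10.57, 9.56, 9.93 and 10.06 on days 0, 2, 4, 7, 12 and 18. With arrays scaled on T cell markers the median of this step was -0.02, with all genes at 0.35. Relative to the median of all genes it was -0.30 to -0.37 under every alternative run. Median, reference gene and T cell marker scaling shift whole arrays. They therefore give the same relative value, -0.37, and are not separate trials of it.

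The subunits and the kinds of protein were set side by side without a test. The median difference of day 7 from day 0 was -0.41 for 42 large subunit genes and -0.30 for 25 small subunit genes. It was -0.38 for 41 genes with a bacterial counterpart and -0.39 for 26 that are specific to mitochondria. At day 2 these medians were -0.03 and 0.09, and at day 18 the large subunit stood at -0.18 and the small at -0.09. From day 4 to day 7 all 26 of the mitochondria-specific genes were negative, and 34 of 41 of the others.

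Several genes with known roles kept a nearly level signal. Mrps21, a small subunit protein, varied least: 9.88, 9.85, 9.82, 9.87, 9.78 and 9.90 on days 0, 2, 4, 7, 12 and 18. Mrpl10, which anchors the stalk that receives translation factors, ranged over 0.21 log2 units, Mrps26 over 0.22, Mrpl54 over 0.28 and Mrpl55 over 0.35. Mrpl12, the protein carried by that stalk, moved more, at 11.12, 11.33, 11.10, 10.47, 10.48 and 10.59, and remained near its day 7 value afterwards. The disease-linked Mrpl44 and Mrpl3 ranged over 0.41 and 0.59, and Mrps5, whose bacterial counterpart affects decoding accuracy, over 0.79, with none past 2-fold.

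Some names cross the subunits. Mrps18a and Mrps30, which despite their names sit in the large subunit, had signals of 9.73 and 10.69 on day 0, against 9.06 and 10.04 on day 7. Mrps18b, described above, differed by -0.60 at day 7 from day 0 on its brightest probe, and by -0.05 and -0.12 on its dimmer probes. Mrps18c, the relative that keeps the bacterial position, went from 9.50 at day 0 to 9.64 at day 7 and 9.86 at day 18. Mrpl18, a large subunit protein with a cytosolic form made under stress in human cells, was among the few with a positive difference from day 0 at day 7, of 0.59. Mrpl4 had the largest such difference, 0.76. Of the 66 genes detected in all 6 libraries, 7 (10.6%, against 25.5% of all genes), Mrpl4 and Mrps6 among them, were above day 0 on all 5 activated days, and 22 (33.3%, against 22.9%) were below it on all 5. Mrpl37, a mitochondria-specific large subunit protein of wide range, stood at 9.82, 10.13, 9.65, 9.04, 9.34 and 9.31 on days 0, 2, 4, 7, 12 and 18.

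A second probe detected in all 6 libraries was available for 21 of the genes. From day 4 to day 7 the second probe had the same sign as the brightest in 20 of 21, with medians of -0.30 and -0.34. For day 18 against day 2 the sign was the same in 20 of 21, with medians of -0.39 and -0.41. For day 7 against day 0 the sign was the same in 17 of 21, and the medians were -0.14 and -0.27, so the difference from naive cells was smaller on the second probes. Mrpl49, named after its values were seen, had -0.82 on its brightest probe and 0.18, 0.18 and 0.06 on its dimmer ones. The SD of the disagreement between probes was 0.16, 0.14 and 0.40 log2 units in these 3 comparisons, against 0.27, 0.39 and 0.42 over 2394 genes with such a pair. Probe pairs measure the same RNA and are not replicates.

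**Figure D4:**
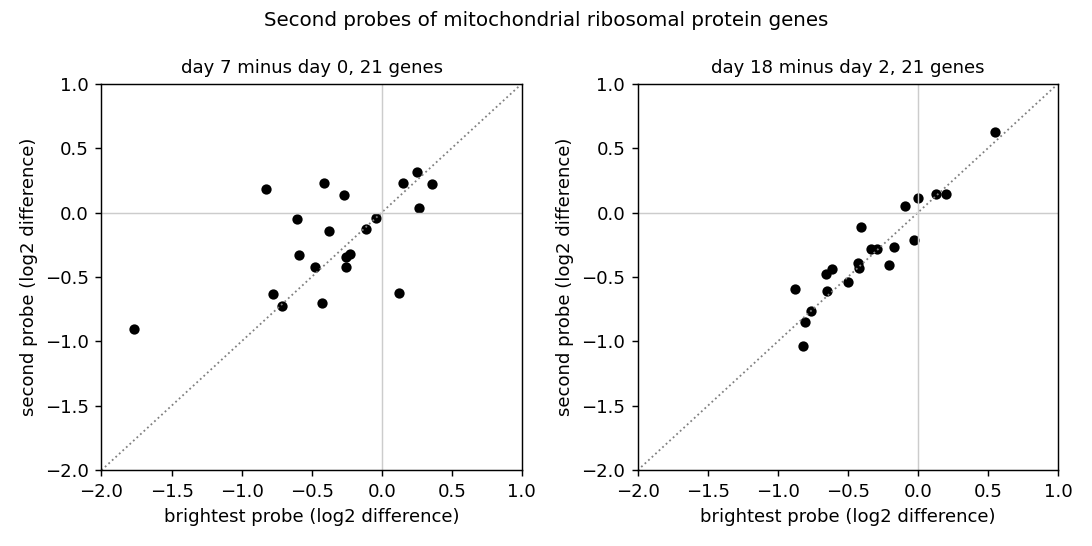
Log2 difference on the second probe against that on the brightest probe for 21 genes, for day 7 minus day 0 (left) and day 18 minus day 2 (right), with the line of equality dotted. The points lie close to the line on the right (SD of disagreement 0.14) and scatter more on the left (0.40).

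Other genes of mitochondrial translation were read from lists chosen by function. Among 7 mitoribosomal proteins with other names, the median difference of day 7 from day 0 was -0.29 with 7 of 7 negative and none called. Dap3, a GTP-binding protein of the small subunit, stood at 11.93, 11.58, 11.49, 11.26, 10.96 and 10.56 on days 0, 2, 4, 7, 12 and 18, below the day before at each step and 2.59-fold lower at day 18 than at day 0. No other gene of the 7 was lower in that comparison, in which 8.68% of all genes were lower. Mrpl42, Mrpl57 and Mrpl58 are listed under older names on the array and so lie outside the 73; the day 0 and day 7 signals were 10.31 and 9.86 for Mrpl42, and 7.69 and 7.60 for Mrpl58. Mrpl57 was detected in 5 libraries and stood at 5.75 at day 0 and 5.07 at day 7.

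Translation factors and assembly factors were lowest at day 7 as lists. The median of 12 translation factors was 0.31 at day 2 and -0.24 at day 7 against day 0, with none called on either day. At day 18 against day 2, 2 of the 12 were lower and none was higher (7.95% and 8.9% of all genes). Tsfm, the exchange factor of mitochondrial elongation factor Tu, was 2.16-fold lower and Gfm2, a ribosome recycling factor, 2.05-fold lower. Tufm, the elongation factor itself, stood at 11.70 at day 2, 10.63 at day 7 and 10.91 at day 18. Of 21 assembly factors 2 were lower at day 7 and none higher (9.34% and 8.88% of all genes), at a median of -0.43. Mrm3, a methyltransferase of the large ribosomal RNA, was 3.97-fold lower, from 7.52 at day 0 to 5.53 at day 7, and Noa1, a GTPase of small subunit assembly, 2.96-fold lower, from 10.65 to 9.08.

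The tRNA charging list had a negative median from day 2. Of 13 mitochondrial tRNA synthetases, 10 were already negative at day 2, at a median of -0.38. The median was -0.64 at day 7, where Lars2 (leucine), 2.24-fold lower, was the only 1 called (9.34% of all genes were lower). At day 4 all 13 were negative and 2 were lower (9.44% of all genes), 1 of them Fars2 (phenylalanine), by 2.30-fold. At days 12 and 18, 1 of the 13 was lower on each day (7.73% and 8.68% of all genes). The median of 13 genes of mitochondrial DNA expression was -0.41 at day 7, after -0.06 at day 2 and -0.09 at day 4. At day 7, 3 of the 13 were lower and none higher (9.34% and 8.88% of all genes). These were Polrmt, the mitochondrial RNA polymerase (9.73 at day 0 and 8.50 at day 7, 2.34-fold), the helicase gene Twnk (2.51-fold) and Top1mt, a topoisomerase (2.35-fold), with 7.23, 7.90 and 6.00 on days 0, 2 and 7.

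Other ribosome and mitochondrial lists also had their lowest median against day 0 at day 7. There the median was -0.13 for 63 cytosolic ribosomal protein genes, -0.25 for 66 nuclear respiratory chain subunits and -0.79 for 22 nucleolar genes of ribosome biogenesis, compared with -0.38 for the 67 genes. The cytosolic and respiratory chain medians were already -0.11 and -0.18 at day 2. From day 4 to day 7 the nucleolar list had a median of -0.94, with 22 of 22 negative and 10 lower (2.44% of all genes). At day 18 against day 2 the medians were 0.16 for cytosolic ribosomal proteins (51 of 63 positive), 0.04 for the respiratory chain (29 of 66 negative) and -0.33 for the mitochondrial ribosomal proteins (52 of 67 negative). These comparisons share their libraries, and the differences between lists were not tested.

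**Figure D5:**
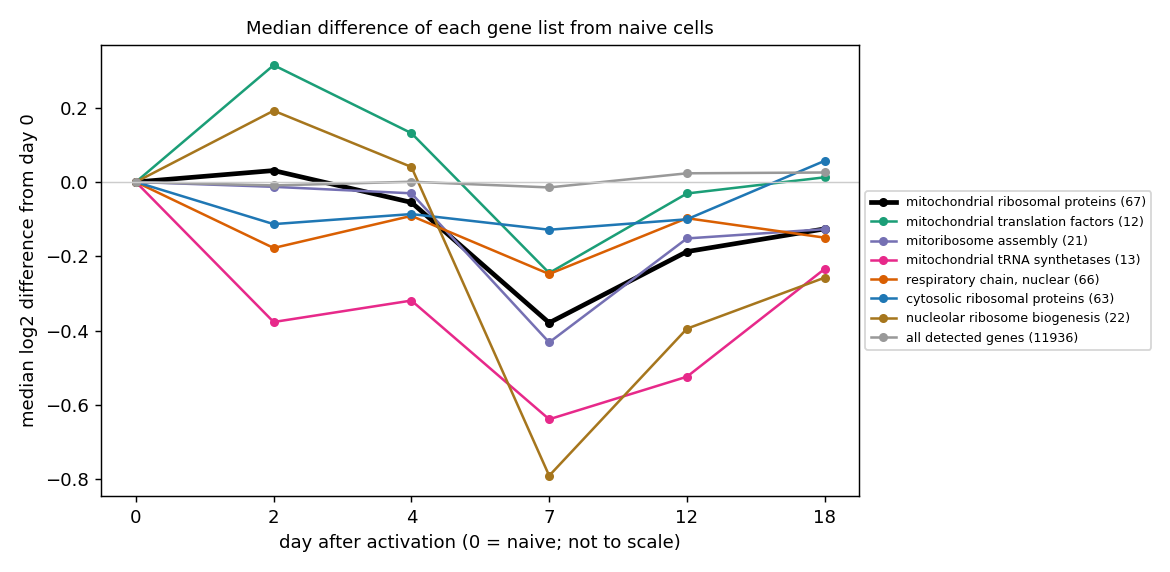
Median log2 difference from day 0 on each day for the mitochondrial ribosomal protein genes (black) and for other gene lists, with the number of detected genes in brackets. The black line is at -0.38 on day 7 and -0.13 on day 18, between the nucleolar list, at -0.79 on day 7, and the cytosolic ribosomal proteins, at -0.13.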

How the data were processed

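RNA of 6 samples was hybridised to Illumina bead arrays, 1 per day. Per the labels' protocols, RNA was extracted with Trizol, treated with DNase on a column and biotin-labelled. The authors deposited a table with an intensity for each probe and array, exported with neither normalization nor background subtraction, per the file headers. The deposited table pairs every intensity with a detection p-value. A deposited set of normalized intensities, made by a method left unstated in the sources used here, was an alternative; its values keep the rank order of the signals, have a median of 3.1 and fall to -12.4.

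Intensities were processed with neqc of limma 3.58.1 (R 4.3.3). It estimates background by normexp, guided by the detection p-values, then quantile-normalizes, adds an offset of 16 and takes log2. Python 3.11.15, pandas 2.3.3, numpy 2.4.6 and matplotlib 3.10.9 did the rest. Probe names were matched to RefSeq symbols (GRCm38, names and neighbours only); of 30854 names, 16223 were found as symbols and 5679 as synonyms. Where the dimmer library did not detect a probe, its value was set to the lowest detected signal of that array (4.88 to 4.97), or its own if higher. Counting was tested on simulated data. Alternatives were median scaling, scaling on 13 reference genes or on T cell markers, an offset of 50, no background correction, a detection p below 0.05, the deposited normalized set, genes detected in all 6 libraries, no filter, the mean of probes and a 1.5-fold rule. Named genes were those called in a comparison, the 8 widest and 5 narrowest ranges, members with detected probes of opposite sign beyond 0.3 log2 units at day 2 against day 0 (none) and listed key genes; others were added after their values were seen. Members, lists and tests were chosen with earlier results of these data known. Promoter motifs, neighbours and steps between successive days were chosen after seeing the data. Median signals were 87.2 to 93.4 per array, and the number of arrays limits the precision.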

Additional observations from a re-analysis of the deposited data

How the results depend on the processing

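Each day has 1 array, so a day and its array cannot be told apart, and the values carry no replicate error. No paired analysis was possible because each group has 1 sample. Of all values set against an alternative, 319 stayed close to the reported value or kept their call, 69 moved further or lost it and 4 reversed; gene values and steps between successive days were added after seeing the data. The cause of the moves was not tested. Changing only the detection filter cannot move the value of a gene detected in all 6 libraries. The deposited set nearly repeats the reported values. Staying close in those comparisons therefore says little. Scaling on T cell markers put the median of the 67 genes at -0.71, -1.50, -1.48, -0.95 and -0.82 for days 2, 4, 7, 12 and 18 against day 0, and at -0.17 for day 18 against day 2. It gave 10, 61, 56, 31 and 16 lower genes of the 67 on those days and 1 for day 18 against day 2. Of all 11936 genes, 4338, 8412, 6920, 4174 and 2727 were lower on those days, and 667 for day 18 against day 2. None of the 67 was higher at days 4 and 18, against 176 and 383 of all genes, and Mrps6 at day 4 turned to -0.08. The median of all genes moved with this scaling, to -0.83, -1.55, -1.22, -0.82 and -0.52. Reference gene scaling gave -0.29, -0.40, -0.61, -0.54 and -0.51, with 1, 3, 12, 8 and 7 lower genes and 0 higher at day 18, and all genes at -0.40, -0.46, -0.35, -0.40 and -0.21. With it 2213, 2393, 2022, 1901 and 1605 of all 11936 genes were lower, and 548 were higher at day 18. Median scaling gave 0.20 with 2 higher genes at day 2 (961 of all genes), 0.09 at day 4 and -0.26 at day 7. Relative to the median of all genes, the difference at day 7 from day 0 lay between -0.38 and -0.26 under all alternatives, and that of day 18 from day 2 between -0.49 and -0.29. At day 4 against day 0 it lay between -0.08 and 0.05. Median, reference gene and T cell marker scaling give the same relative value by construction, so these ranges do not try them separately.

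The 1.5-fold rule gave 8, 4, 3, 1 and 3 higher genes and 2, 5, 22, 12 and 10 lower genes for days 2, 4, 7, 12 and 18 against day 0, and 1 higher and 17 lower for day 18 against day 2. Without background correction, and likewise with an offset of 50, 3 genes were lower at day 7 and 1 was lower at day 18 against day 2. Of all 11936 genes, 580 and 515 were lower in these comparisons without background correction, and 760 and 680 with the offset of 50. The mean of probes left 1 lower gene at day 12 (842 of all 11959 genes). Mrpl38, Mrpl50 and Mrps28 at day 7, Mrpl50 at days 12 and 18, Mrps22 at day 18 and Mrps6 at day 2 kept their calls in 10 of 10 alternatives. Those alternatives that changed only the detection filter could not move these calls, and the deposited set nearly repeats the reported values. Mrpl50, Mrps28 and Mrps6 have 1 probe each, so the mean of probes could not move their calls either.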
